A study of Homo sapiens with 6 samples.

Results

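The E2F transcription factors and the retinoblastoma proteins form the switch that lets a cell leave G1 and copy its DNA. In G1 the pocket proteins RB1, RBL1 (p107) and RBL2 (p130) sit on E2F factors and hold their target genes down. Cyclin-dependent kinases phosphorylate the pocket proteins, the E2F factors are released, and genes of DNA replication are transcribed. E2F1, E2F2 and E2F3 are the activators of the family, E2F4 and E2F5 act mainly as repressors together with RBL1 and RBL2, and the atypical E2F7 and E2F8 repress without a pocket protein. This pathway is often disturbed in pancreatic cancer, most often through loss of the kinase inhibitor CDKN2A.

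The family was taken as the rows whose symbol was E2F1, E2F2, E2F3, E2F4, E2F5, E2F7, E2F8, RB1, RBL1 or RBL2, which gave 10 of 23245 rows with a usable symbol. The cells were L3.6pl, an established human pancreatic cancer line grown without any drug in Minimum Essential Media and fetal calf serum. ARID1A-deficient cells (titled ARID1Ako, 3 libraries) were set against the parental line with the genotype WT (3 libraries). ARID1A encodes a subunit of the SWI/SNF complex, which moves nucleosomes. The labels do not say how the gene was disrupted or whether the ARID1A-deficient libraries came from 1 clone or several, so clone and ARID1A status cannot be told apart. The labels speak of triplicate samples but not of separate cultures, and p-values then measure only the spread between these libraries.

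Values are FPKM, that is, fragment numbers divided by transcript length and by library size, so levels of different genes can be set side by side. ARID1A itself measured 3.55, 3.28 and 3.61 FPKM in ARID1A-deficient libraries 1, 2 and 3, against 11.8, 6.76 and 9.42 FPKM in parental libraries 1, 2 and 3. It was lower, with a log2 fold change of -1.18 in limma (adjusted p = 0.00610). The 40 tested genes nearest to ARID1A, 20 on each side, had a median log2 fold change of -0.27. Of these, 11 were called lower and 0 higher, where 8.11% and 7.82% of all tested genes were. The part of this regional shift in the ARID1A value was not tested. The libraries summed to 576084 to 792187 FPKM, with parental library 2 highest. The epithelial genes KRT8, KRT18, KRT19, EPCAM, CDH1 and CLDN4 were all present, summing to 2670 to 3420 FPKM in ARID1A-deficient and 3960 to 6120 FPKM in parental libraries. The keratins made up most of this sum, and none of them was called in limma on the values as deposited with group as the only term. KRT8, KRT18 and KRT19 passed with libraries scaled to the same total (limma adjusted p = 0.00247, 0.0141 and 0.00283). Of the 6 genes, 5 had a log2 fold change below 0, and 4 of these had an unadjusted p under 0.05. CLDN4, a tight junction gene, was the 1 called, and it was higher. It measured 19.7 ± 1.99 FPKM in ARID1A-deficient and 5.42 ± 0.111 FPKM in parental libraries (SD, n = 3 each; 3.62-fold, limma adjusted p = 7.9e-05). Of 7 fibroblast markers only COL1A1 reached the mean of 0.5 FPKM needed for testing and was higher, with DCN and LUM listed at 0 throughout. Of 6 leukocyte markers only CD68 did and was lower, and of 4 endothelial markers 2 did, of which PECAM1 was lower. The summed level in ARID1A-deficient against parental libraries was 39.5 to 50.2 against 19.0 to 22.2 FPKM for the fibroblast list, 6.12 to 7.91 against 8.51 to 10.1 FPKM for the leukocyte list and 8.64 to 9.23 against 8.43 to 10.0 FPKM for the endothelial list. The part of these differences in the results was not tested.

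All 10 members passed the filter on low values. Of them 1, E2F2, was lower in ARID1A-deficient cells by limma with Benjamini-Hochberg adjustment, 0 were higher and 9 did not pass the threshold of 0.05. At an unadjusted p under 0.05 the count was also 1, and the share of all tested genes under this limit was not counted. Across all 12826 genes tested, 15.9% were called in either direction, 8.11% lower and 7.82% higher, and the family's 1 of 10 was near the share of lower calls. The median log2 fold change was -0.20 over the 10 members and -0.01 over all tested genes. For 1 of the 10 members the FPKM ranges of the groups did not overlap, against 35.3% of all tested genes. In bulk RNA, fewer cells in a given phase of the cycle and less RNA per cell cannot be told apart.

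**Figure D1:**
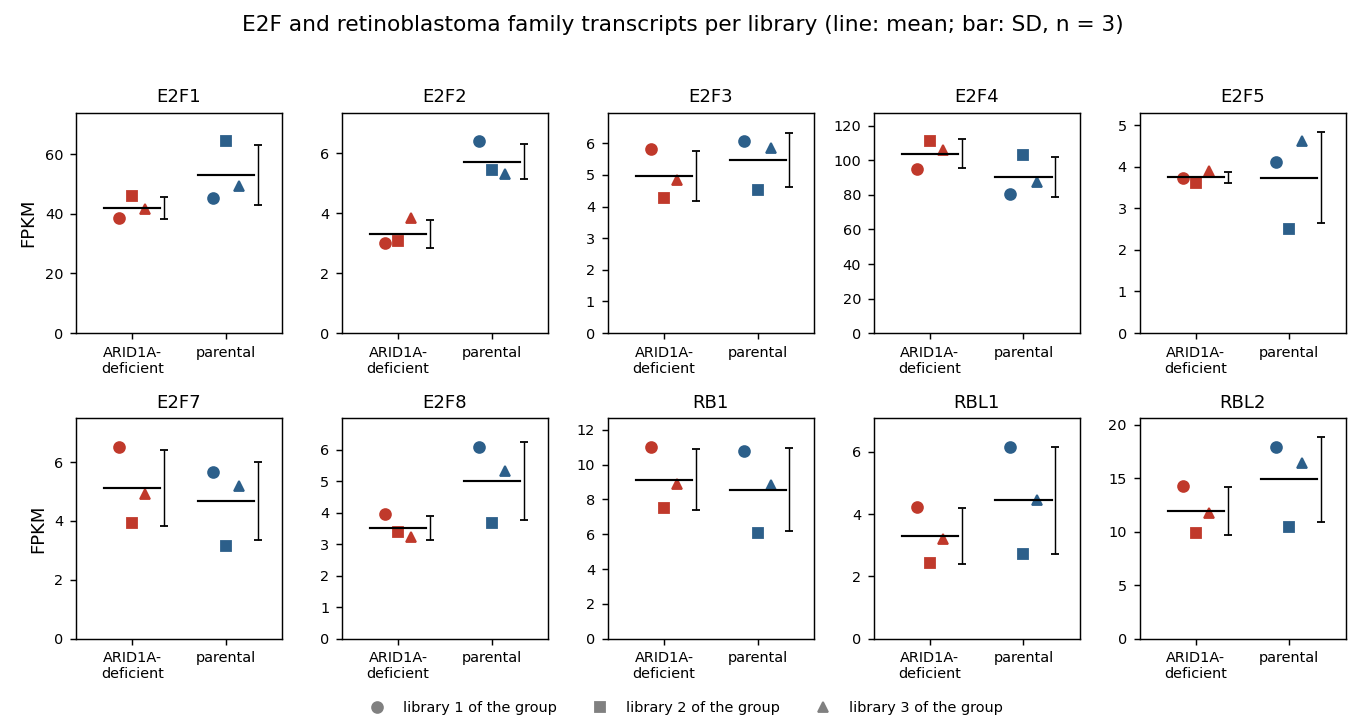
FPKM (vertical axes, each from 0) of the 10 family members in 3 ARID1A-deficient (red) and 3 parental (blue) libraries; marker shapes give the library number within a group, lines the mean and bars the SD (n = 3). The groups separate for E2F2, where ARID1A-deficient libraries lie between 3.01 and 3.84 FPKM and parental libraries between 5.31 and 6.39 FPKM, and overlap for the other members.

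The order of levels was led by the same 4 genes in both groups. E2F4 was the most abundant, with a mean of 104 ± 8.33 FPKM in ARID1A-deficient and 90.4 ± 11.8 FPKM in parental libraries (SD, n = 3 each). E2F1 came next, followed by RBL2 and RB1. The ranges of E2F4 and E2F1 each lay above that of the next gene in both groups, and those of RBL2 and RB1 overlapped. The other 6 members had means between 3.29 and 5.12 FPKM in ARID1A-deficient and between 3.74 and 5.72 FPKM in parental libraries. In parental libraries each of these overlapped with its neighbour in the order. In ARID1A-deficient libraries they did too, apart from E2F3, which lay above E2F5, and E2F2 stood at place 9 of 10, against place 5 in parental cells.

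Among the activators, E2F2, which drives entry into S phase, measured 3.01, 3.06 and 3.84 FPKM in ARID1A-deficient libraries 1, 2 and 3, against 6.39, 5.45 and 5.31 FPKM in parental libraries 1, 2 and 3. Every ARID1A-deficient value lay below every parental value. Its mean was 3.30 ± 0.464 FPKM in ARID1A-deficient and 5.72 ± 0.590 FPKM in parental libraries (SD, n = 3 each), 1.73-fold lower, with a log2 fold change of FPKM + 1 of -0.64 (95% interval -0.93 to -0.36, limma adjusted p = 0.0129). The call ended with ARID1A-deficient library 1 left out (adjusted p = 0.0534). It also ended with ARID1A-deficient library 2 left out (adjusted p = 0.0614), and when each library was scaled to the same total (adjusted p = 0.0738). E2F2 lies on the same chromosome as ARID1A, with 40 tested genes between them. Its 40 nearest tested neighbours, 20 on each side, had a median log2 fold change of -0.22, with 6 called lower and 1 higher. The part of this regional shift in the E2F2 value was not tested.

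E2F1, the activator that also takes part in apoptosis, measured 38.4, 45.8 and 41.6 FPKM in ARID1A-deficient libraries, against 45.3, 64.2 and 49.2 FPKM in parental libraries. The groups overlapped only between ARID1A-deficient library 2 and parental library 1. The log2 fold change was -0.31 (95% interval -0.66 to 0.04) and did not pass (limma adjusted p = 0.213). It did pass with each library scaled to the same total (adjusted p = 0.0284) and with the slope of values on transcript length as a covariate (adjusted p = 0.00393). These 2 fits called 5.3% and 17.8% of all tested genes lower. Its 40 neighbours had a median of -0.01. E2F3, the activator best known for driving proliferation in bladder cancer, measured 5.83, 4.27 and 4.83 FPKM in ARID1A-deficient libraries, against 6.06, 4.51 and 5.86 FPKM in parental libraries. These ranges overlapped almost fully (log2 fold change -0.12, 95% interval -0.46 to 0.23).

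Among the repressors, E2F4, the main E2F of quiescent cells, measured 95.1, 111 and 106 FPKM in ARID1A-deficient libraries, against 80.5, 103 and 87.3 FPKM in parental libraries. ARID1A-deficient libraries 2 and 3 lay above all parental libraries, and library 1 lay within their range. The log2 fold change was 0.21 (95% interval -0.10 to 0.52, limma adjusted p = 0.351), and the 40 neighbours of E2F4 had a median of 0.17. E2F5, its close relative, measured 3.72, 3.62 and 3.89 FPKM in ARID1A-deficient libraries, against 4.11, 2.50 and 4.61 FPKM in parental libraries. The ARID1A-deficient values lay inside the parental range, and the log2 fold change of 0.03 had an interval from -0.40 to 0.46. Exons of E2F5 overlap C8orf59 on the other strand, and since the libraries do not mark strand, reads of the overlap may count for either gene.

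The atypical members had estimates of opposite sign, and neither passed with all 6 libraries. E2F8 measured 3.95, 3.39 and 3.22 FPKM in ARID1A-deficient libraries, against 6.08, 3.66 and 5.31 FPKM in parental libraries. Parental library 2 lay within the ARID1A-deficient range and the other parental libraries above it. The log2 fold change of -0.39 (95% interval -0.79 to 0.00) did not pass (limma adjusted p = 0.174). Leaving out parental library 2 took it past the threshold (adjusted p = 0.00772), in a fit that called 16.3% of all tested genes lower. E2F7, its partner in repressing E2F1, measured 6.51, 3.93 and 4.92 FPKM in ARID1A-deficient libraries, against 5.67, 3.16 and 5.19 FPKM in parental libraries. The ranges overlapped, with a log2 fold change of 0.12 (95% interval -0.42 to 0.65).

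Of the pocket proteins, RB1, the tumour suppressor that gave the family its name, measured 11.0, 7.53 and 8.88 FPKM in ARID1A-deficient libraries, against 10.8, 6.08 and 8.81 FPKM in parental libraries. The transcript was present in every library and the groups overlapped, with a log2 fold change of 0.10 (95% interval -0.40 to 0.60), while its 40 neighbours had a median of 0.28 with 13 called higher and 0 lower. RBL1, which rises as cells enter S phase, measured 4.24, 2.44 and 3.19 FPKM in ARID1A-deficient libraries, against 6.15, 2.72 and 4.46 FPKM in parental libraries. The log2 fold change was -0.31 (95% interval -0.93 to 0.31, limma adjusted p = 0.489), with overlapping ranges. RBL2, the pocket protein of quiescent cells, measured 14.3, 9.85 and 11.7 FPKM in ARID1A-deficient libraries, against 17.9, 10.4 and 16.4 FPKM in parental libraries. Its log2 fold change of -0.28 (95% interval -0.79 to 0.24) did not pass (limma adjusted p = 0.461). With parental library 2 left out it passed (adjusted p = 0.0260), in a fit that called 16.3% of all tested genes lower. Exons of RBL2 overlap AKTIP on the other strand, and here too reads of the overlap may count for either gene.

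**Figure D2:**
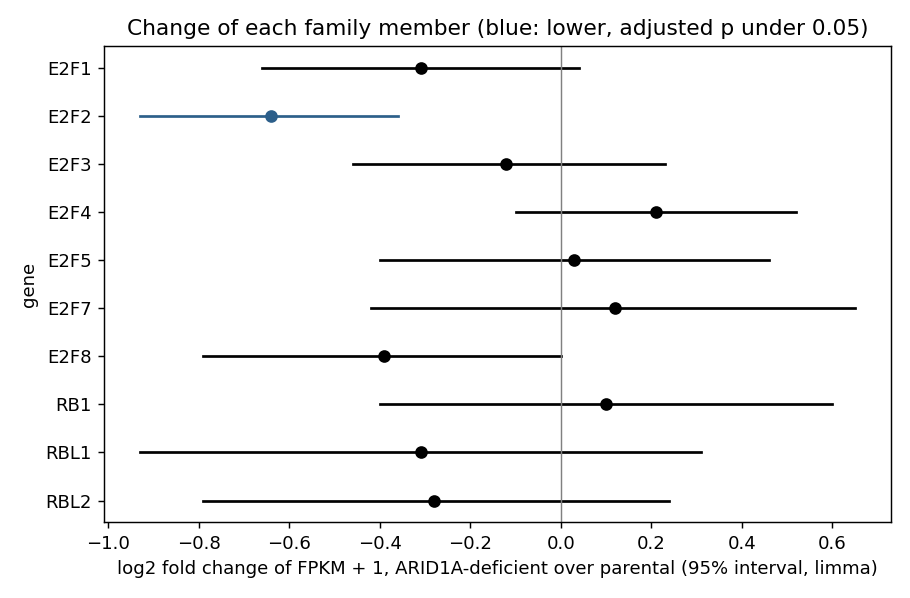
Log2 fold change of FPKM + 1, ARID1A-deficient over parental (horizontal axis), for each member with its 95% interval from limma. The interval of E2F2 runs from -0.93 to -0.36, and the intervals of the other 9 members reach or include 0.

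The spread within a group was shared by members. E2F3, E2F7, RB1, RBL1 and RBL2 were highest in library 1 and lowest in library 2 of both groups, and E2F1 and E2F4 were lowest in library 1 and highest in library 2 of both. The first pattern held for 19.1% and the second for 19.9% of all tested genes. The libraries numbered 1 thus moved together across the groups in many genes, as did those numbered 2. With the number fitted as a block, 5 members were called lower, in a fit that called 17.1% of all tested genes lower. The longest annotated transcripts of E2F1 and E2F4 had 2503 and 2615 bases, and those of the other 8 members 3519 to 5740 bases. The slope of a library's deviations on log2 transcript length was -0.00608, -0.0217 and -0.000211 in ARID1A-deficient libraries 1, 2 and 3. For the parental libraries the slopes were 0.0517, -0.0481 and 0.0244 in the same order. The 8 longer members, apart from E2F2, had their lowest parental value in library 2, where the slope was lowest.

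Ratios between genes of a library do not depend on how that library was scaled. Activators made up 30.2%, 30.3% and 29.8% of the summed FPKM of the 7 E2F genes in ARID1A-deficient libraries 1, 2 and 3, against 37.5%, 39.7% and 37.1% in parental libraries 1, 2 and 3. The means were 30.1 ± 0.257% and 38.1 ± 1.41% (SD, n = 3 each), and the groups did not overlap. Repressors took 64.7 ± 1.35% in ARID1A-deficient and 56.0 ± 0.972% in parental libraries. E2F1 made up 83.4 ± 2.51% of the activator sum in ARID1A-deficient and 82.2 ± 4.12% in parental libraries. E2F4 alone made up 62.4 ± 1.47% and 53.7 ± 1.55% of the 7 genes. The class shares therefore mostly follow E2F1 and E2F4, and neither was called in limma on the values as deposited with group as the only term. The summed level of the 7 genes was 167 ± 9.57 FPKM in ARID1A-deficient and 168 ± 17.0 FPKM in parental libraries. For the 2 most abundant members, the ratio of E2F1 to E2F4 was 0.404, 0.411 and 0.391 in ARID1A-deficient libraries, against 0.563, 0.621 and 0.563 in parental libraries. The ratio to E2F4 did not overlap between the groups for 37.7% of all other genes, so such a separation is common.

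Within the classes, 4 of 8 pairs had ratios whose groups did not overlap. RB1 over RBL2 was 0.770, 0.764 and 0.757 in ARID1A-deficient libraries, against 0.601, 0.585 and 0.537 in parental libraries, and RB1 over RBL1 was 2.60, 3.08 and 2.78 against 1.75, 2.23 and 1.98. RB1 thus held 37.5 ± 0.408% of the pocket protein transcripts in ARID1A-deficient and 30.8 ± 1.01% in parental libraries (SD, n = 3 each). The 40 neighbours of RB1 had a median log2 fold change of 0.28, and RBL2 values may include reads of AKTIP. The part of either in the RB1 ratios and share was not tested. E2F7 over E2F8 was 1.65, 1.16 and 1.53 in ARID1A-deficient libraries, against 0.932, 0.862 and 0.978 in parental libraries. E2F2 over E2F3 was 0.516, 0.716 and 0.794 in ARID1A-deficient libraries, against 1.05, 1.21 and 0.905 in parental libraries. Over all 45 pairs of members, 14 did not overlap. Among all pairs of tested genes above 0 in every library this was so for 39.3%, so the 45 pairs did not separate more often. For ratios to RB1 it was 21.4% of other genes and for ratios to E2F7 18.4%. Among members, the ratios of E2F2, E2F8, RBL1 and RBL2 to RB1 did not overlap, nor did their ratios to E2F7. Ratios of the other members to RB1 or E2F7 overlapped. For RB1 and E2F7, members thus separated more often than other genes did. The pairs named here share members, were singled out after their values were seen and are given with no test.

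**Figure D3:**
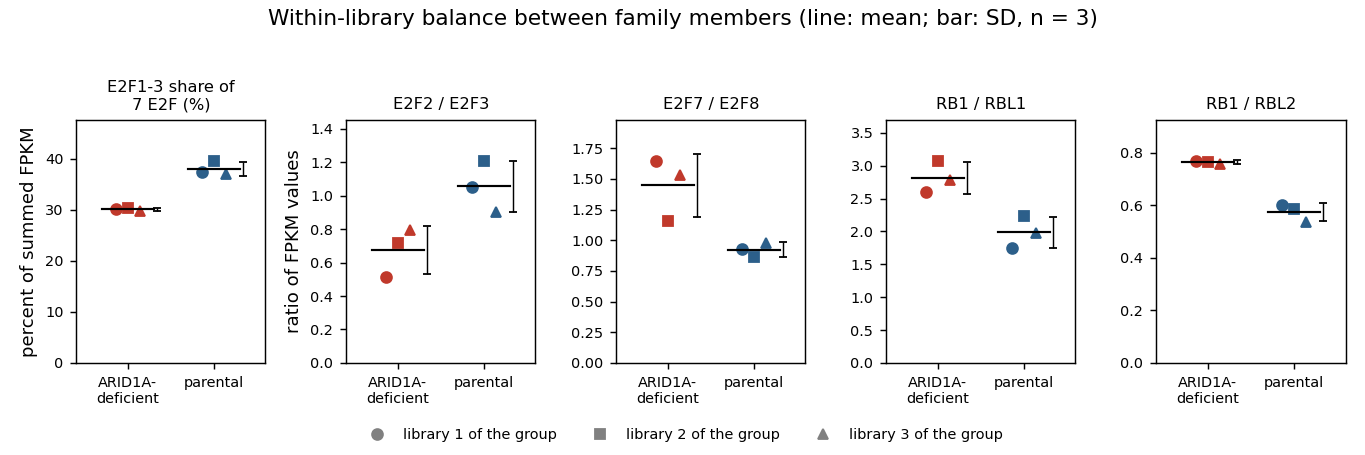
Share of E2F1, E2F2 and E2F3 in the summed FPKM of 7 E2F genes (left, percent) and 4 ratios of FPKM values, per library, in ARID1A-deficient (red) and parental (blue) cells; lines give the mean and bars the SD (n = 3). The groups do not overlap in any panel shown, and RB1 over RBL2 is 0.757 to 0.770 in ARID1A-deficient and 0.537 to 0.601 in parental libraries.

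Several family genes are themselves under E2F control, so their start regions are shown for the activators and for RBL1, with E2F4 for comparison. The sequences are from RefSeq on GRCh38.p14 (the deposited values were made on GRCh37), 100 bases before the start on the gene's strand, and capitals mark matches to TTTCCCGC, TTTCGCGC, TTTGCCGC or TTTGGCGC on either strand.
E2F1 (chr20:33686386-33686485, minus strand): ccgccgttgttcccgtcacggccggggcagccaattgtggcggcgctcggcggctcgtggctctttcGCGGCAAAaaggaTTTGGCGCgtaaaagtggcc
E2F2 (chr1:23531234-23531333, minus strand): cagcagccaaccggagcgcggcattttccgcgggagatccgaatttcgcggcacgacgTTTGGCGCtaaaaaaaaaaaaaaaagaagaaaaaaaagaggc
E2F3 (chr6:20401779-20401878, plus strand): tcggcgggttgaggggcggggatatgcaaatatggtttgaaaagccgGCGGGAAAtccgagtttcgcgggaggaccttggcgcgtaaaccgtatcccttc
RBL1 (chr20:37095998-37096097, minus strand): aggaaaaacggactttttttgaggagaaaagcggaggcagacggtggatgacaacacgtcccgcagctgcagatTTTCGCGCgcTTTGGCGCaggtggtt
E2F4 (chr16:67192055-67192154, plus strand): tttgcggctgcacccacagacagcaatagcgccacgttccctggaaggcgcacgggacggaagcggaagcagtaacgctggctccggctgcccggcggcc

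The matches lie 33 to 26 and 20 to 13 bases before the start in E2F1, 42 to 35 in E2F2, 53 to 46 in E2F3, and 26 to 19 and 16 to 9 in RBL1. Of the 8 members with an entry, these 4 held a match in the window of 250 bases before and 50 after the start. E2F5 and E2F8 had no entry, and that of RB1 lies inside the gene, away from its first start. The first start of RB1 was therefore not searched. A match stood in 3.31% of all 35116 windows and, by gene, in 6.78% of the tested genes with a window. E2F1, E2F2, E2F3 and RBL1 had log2 fold changes between -0.64 and -0.12. E2F4, E2F7 and RBL2, which had an entry but no match, lay between -0.28 and 0.21. Over all tested genes with a window, the median was -0.04 for the 595 with a match and -0.01 for the 8185 without, with 8.74% and 7.93% lower and 5.04% and 8.01% higher. A match is a string of letters and not a measured binding site.

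Upstream of the pocket proteins, the kinases that phosphorylate RB1 and their inhibitors had 4 of 15 tested genes higher, 0 lower and 11 not past the threshold in limma, where 7.82% of all tested genes were higher. The unadjusted p was under 0.05 for 5 genes above 0 and 2 below it, and no share of all tested genes was counted at this limit. Limma with neither trend nor robust moderation called 1 lower, CCND1, in a fit that called 7.82% of all tested genes lower. With parental library 2 left out 5 were higher and 2 lower, in a fit where 15.5% of all tested genes were higher and 16.3% lower. The list's median log2 fold change was 0.09. CDKN2B, which encodes the CDK4 and CDK6 inhibitor p15, measured 21.0, 18.2 and 18.9 FPKM in ARID1A-deficient libraries, against 8.59, 7.43 and 9.05 FPKM in parental libraries (log2 fold change 1.12, adjusted p = 0.000633). CDKN1A, which encodes p21, was higher by 1.11 on the log2 scale (adjusted p = 0.00115). All ARID1A-deficient values of both inhibitors lay above all parental ones. CCND3, a D-type cyclin, was higher at 35.0 ± 3.17 FPKM in ARID1A-deficient and 23.6 ± 2.34 FPKM in parental libraries, and CDK6, its kinase partner, was higher at 9.38 ± 0.674 and 6.67 ± 0.757 FPKM (SD, n = 3 each). The list thus held inhibitors and activators of the kinases among its higher members. With libraries scaled to the same total CDK6 did not pass (adjusted p = 0.284). The count of higher genes was 2 without ARID1A-deficient library 2 or 3 or parental library 3, where 4.61%, 4.14% and 4.36% of all tested genes were higher, with CDKN2B and CDKN1A past the threshold whichever library was left out (highest adjusted p = 0.00734 and 0.0119).

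CDKN2A, which gives rise to p16 and p14ARF and is often lost in this cancer, was present at 404, 509 and 472 FPKM in ARID1A-deficient libraries, against 245, 370 and 254 FPKM in parental libraries. All ARID1A-deficient values lay above the parental ones, but the log2 fold change of 0.69 did not pass (adjusted p = 0.0659). It did pass with libraries scaled to the same total (adjusted p = 0.00297). A value per gene does not separate the p16 and p14ARF transcripts. The 40 neighbours of CDKN2A, which include CDKN2B, had a median log2 fold change of 0.39, with 13 called higher and 1 lower, and the part of this regional shift was not tested. CCND1, the main D-type cyclin here, measured 91.9 ± 4.12 FPKM in ARID1A-deficient and 116 ± 3.79 FPKM in parental libraries (adjusted p = 0.0659). All its ARID1A-deficient values lay below the parental ones. It was lower in limma with neither trend nor robust moderation (adjusted p = 0.0368) and with parental library 2 left out (adjusted p = 0.0308). With the length covariate it was lower too (adjusted p = 0.0111), and with libraries scaled to the same total it did not pass (adjusted p = 0.175). CCND2 was listed at 0 in all libraries.

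The partners that E2F factors need to bind DNA showed no call in limma with group as the only term. TFDP1, the main DP subunit, measured 54.6 ± 1.88 FPKM in ARID1A-deficient and 48.2 ± 3.90 FPKM in parental libraries (log2 fold change 0.18, adjusted p = 0.267). With the length covariate TFDP1 was higher (adjusted p = 0.0305), in a fit that called 14.3% of all tested genes higher. TFDP2 measured 10.7 ± 0.338 and 9.69 ± 0.706 FPKM. E2F6, a repressor that does not bind pocket proteins, measured 3.25 ± 0.272 FPKM in ARID1A-deficient and 4.17 ± 0.260 FPKM in parental libraries (SD, n = 3 each; adjusted p = 0.105). Of these 3 genes, 1 was lower at an unadjusted p under 0.05, where the share of all tested genes was not counted. Limma with neither trend nor robust moderation called 0. TFDP3 was not testable, at 0.0695 FPKM or less in every library.

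Among co-repressors that RB recruits, 1 of 10 was lower and 0 higher, near the 8.11% and 7.82% of all tested genes, and the median was -0.09. HDAC1, a histone deacetylase, measured 97.0, 104 and 102 FPKM in ARID1A-deficient libraries, against 129, 145 and 140 FPKM in parental libraries (log2 fold change -0.45, adjusted p = 0.0305). That call ended without any single ARID1A-deficient library or parental library 3 (highest adjusted p = 0.143), and the 40 neighbours of HDAC1, also on chromosome 1, had a median of -0.27. RBBP8, SIN3A and SUV39H1 followed by adjusted p, at log2 fold changes of -0.39, -0.32 and 0.16, and none of them passed. With parental library 2 left out RBBP8 and SIN3A were lower too (adjusted p = 0.00568 and 0.00987), in a fit that called 16.3% of all tested genes lower. The MuvB core forms the DREAM complex with E2F4 and RBL2, and it was listed with its other partners MYBL2 and FOXM1. Of these 7 genes, 0 were called by limma or by limma with neither trend nor robust moderation. At an unadjusted p under 0.05, a limit with no share of all tested genes counted, 1 was lower. RBBP4, a histone-binding subunit, had a log2 fold change of -0.36 (adjusted p = 0.0638) with neighbours at -0.25, and it was lower with parental library 2 left out (adjusted p = 0.00844) and with the length covariate (adjusted p = 0.0203). FOXM1, LIN54 and LIN37 had 0.18, -0.09 and -0.10. MYBL2, the activating partner of MuvB, measured 133 ± 14.5 FPKM in ARID1A-deficient and 130 ± 22.2 FPKM in parental libraries (SD, n = 3 each).

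Of 9 genes that govern E2F turnover, 1 was lower and 0 higher, near the 8.11% and 7.82% of all tested genes. CCNF, the cyclin F subunit of a ubiquitin ligase that marks E2F factors for breakdown, measured 14.4, 17.0 and 15.2 FPKM in ARID1A-deficient libraries, against 22.8, 22.2 and 22.3 FPKM in parental libraries. The groups did not overlap (log2 fold change -0.51, adjusted p = 0.00915), and the call ended with ARID1A-deficient library 3 left out (adjusted p = 0.0558) or libraries scaled to the same total (adjusted p = 0.0571). CDC20, USP11 and SKP2 had log2 fold changes of 0.51, 0.26 and -0.43 and did not pass with all 6 libraries as deposited. CDC20, an activator of the ligase that ends mitosis, was higher with libraries scaled to the same total (adjusted p = 0.00421) and with parental library 2 left out (adjusted p = 0.00544). SKP2, a ubiquitin ligase subunit, was lower with parental library 2 left out (adjusted p = 0.00807). That fit called 16.3% of all tested genes lower and 15.5% higher. With the length covariate CDC20, FBXO5 and USP11 were higher and CCNF, CKS1B and SKP2 lower, where 14.3% and 17.8% of all tested genes were higher and lower.

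Genes switched on by E2F at the start of S phase were lower in part. Of 30 tested members, 7 were lower, 0 higher in limma and 23 not past the threshold, where 8.11% of all tested genes were lower. The log2 fold change was below 0 for 29 of the 30, TYMS being the other, with a median of -0.27 against -0.01 over all tested genes. BRCA1, a DNA repair gene, measured 9.74, 9.30 and 8.95 FPKM in ARID1A-deficient libraries, against 15.9, 16.1 and 19.4 FPKM in parental libraries (log2 fold change -0.81, adjusted p = 0.00262). It passed whichever library was left out (highest adjusted p = 0.0221), and its 40 neighbours had a median of -0.24. CHAF1B, a histone chaperone subunit, was lower at 9.98 ± 0.549 FPKM in ARID1A-deficient and 14.3 ± 0.853 FPKM in parental libraries. MCM4, a helicase subunit, was lower at 51.5 ± 2.89 and 78.2 ± 9.75 FPKM, and SLBP, which binds the stem-loop of histone messages, at 31.1 ± 2.88 and 42.8 ± 1.59 FPKM (SD, n = 3 each). MCM6, PRIM1 and RRM2 had log2 fold changes of -0.55, -0.47 and -0.53. The 40 neighbours of RRM2 had a median of -0.28, with 9 called lower and 0 higher, and those of MCM6 a median of -0.04. The part of such regional shifts was not tested. An unadjusted p under 0.05 was reached by 15 members with a log2 fold change below 0 and by 0 above it. The share of all tested genes under this unadjusted limit was not counted, so the 15 cannot be set against it. Limma with neither trend nor robust moderation called 0 higher.

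Single libraries moved this count, which was 13 with parental library 2 left out and 1 with parental library 3 left out, where 16.3% and 3.59% of all tested genes were lower. It was 3 without ARID1A-deficient library 2, 2 without ARID1A-deficient library 3, and 3 with libraries scaled to the same total, where BRCA1, CDC45 and MCM5 passed. In these fits 3.83%, 3.38% and 5.3% of all tested genes were lower. Of the 26 members with a RefSeq window, 14 (53.8%) held a match to the same E2F letters. Of the 7 lower members 6 had a window, and 1 of these held a match.

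Genes of mitosis that MuvB complexes switch on later had 0 of 20 called by limma or by limma with neither trend nor robust moderation, and their median was -0.16. An unadjusted p under 0.05 was reached by 2 of them, both with a log2 fold change below 0. All tested genes were not counted at this limit. With parental library 2 left out 4 were called lower and with the length covariate 6, where 16.3% and 17.8% of all tested genes were lower. TOP2A, which untangles replicated DNA, measured 56.9 ± 8.92 FPKM in ARID1A-deficient and 93.9 ± 23.3 FPKM in parental libraries (SD, n = 3 each; log2 fold change -0.69, adjusted p = 0.0706). NEK2, CDC25C and PLK1 followed with log2 fold changes of -0.34, -0.23 and -0.25. MKI67, a general marker of cycling cells outside these lists, measured 33.0, 29.4 and 31.2 FPKM in ARID1A-deficient libraries, against 44.6, 30.3 and 36.5 FPKM in parental libraries. The groups overlapped (log2 fold change -0.23, adjusted p = 0.348). MKI67 was lower with parental library 2 left out (limma adjusted p = 0.0339).

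**Figure D4:**
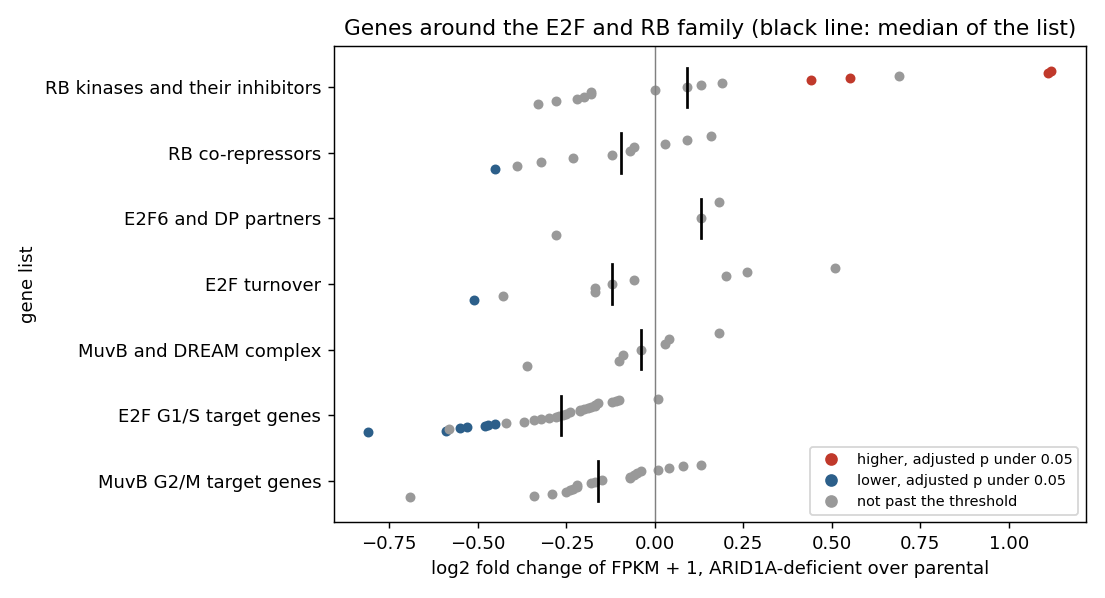
Log2 fold change of FPKM + 1, ARID1A-deficient over parental (horizontal axis), of every tested gene in 7 lists around the family; each point is a gene and black lines are list medians. E2F G1/S target genes lie below 0 for 29 of 30 genes (7 called lower), and the 4 called higher in any list are CDKN2B, CDKN1A, CCND3 and CDK6.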

How the data were processed

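RNA was profiled in 6 libraries. Per the labels' protocols, TRIzol was used to take total RNA, followed by the TruSeq version 2 kit, which does not mark strand. The authors deposited 1 FPKM value per gene and library. The submitters' processing notes name Cuffdiff 2.2.1.5, Cuffnorm 2.2.1.2 and TopHat2 2.1.1 and the builds GRCh37 and hg19. The annotation and the scaling used by the authors are not given in the sources read here. The tables had 23273 rows, of which 28 with symbols turned into dates were left out. TUBB was listed at 0 in all libraries, so a 0 can be a failed estimate. Total fragments are unknown. From the spacing of values under 0.2 FPKM, the estimated depth was 0.732 to 1.275 times that of parental library 1 in ARID1A-deficient libraries and 0.785 to 1.035 times in the other parental libraries.

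The test, on the 12826 genes whose mean reached 0.5 FPKM, was limma 3.58.1 (R 4.3.3) on log2(FPKM + 1), with trend and robust moderation, group as the only term, two-sided, Benjamini-Hochberg adjustment over all tested genes and a threshold of 0.05. This scale understates changes of low genes. Counts at an unadjusted p under 0.05 are given for the members and lists only, with no share of all tested genes to set them against. Members, gene lists and the naming rule (ARID1A, all members, the 4 smallest adjusted p and every call of each list, CDKN2A, MKI67 and TUBB) were chosen with earlier results of these data known; other genes, such as CCND1, CCND2, MYBL2, TYMS, CDC45, MCM5 and TFDP3, were named after their values were seen. Neighbours came from a RefSeq table of GRCh38, which placed 97.1% of tested genes, and transcript lengths from GENCODE, for 96.3%.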

Additional observations from a re-analysis of the deposited data

How the results depend on the processing

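Of the 10 members, E2F2 was the one called with a pseudocount of 0.1, with no filter on low values, with a minimum mean of 3 FPKM, with quantile normalization and with neither trend nor robust moderation. With libraries scaled to 1000000 FPKM in total, E2F1 was called in its place, and with the length slope as a covariate 2 members were called, E2F1 and E2F2, both lower. Leaving out single libraries gave 0 to 3 members. The number of genes called, 2043, was 4124 with the length slope (17.8% of tested genes lower, 14.3% higher) and 964 to 4079 with single libraries left out. Of the E2F G1/S target genes, 17 were lower with the length slope, 3 with libraries scaled to the same total and 1 to 13 with single libraries left out, and the higher RB kinase and inhibitor genes numbered 2 to 5. With the length slope 6 MuvB G2/M target genes, 3 RB co-repressors, 3 turnover genes, 3 RB kinase and inhibitor genes and RBBP4 were lower, and 3 turnover genes, 5 RB kinase and inhibitor genes and TFDP1 higher. Log2 fold changes turned sign without single libraries for E2F5 (-0.17 to 0.17), E2F7 (-0.09 to 0.26) and RB1 (-0.10 to 0.27), and none of these passed. The causes were not tested. Fitting the replicate block (the replicate number of the titles) gave 4049 genes (31.6%), 5 members of 10, all lower (E2F1, E2F2, E2F8, RBL1 and RBL2), against 17.1% of all tested genes lower, and 13 E2F G1/S target genes. Deviations from the group means correlated at 0.219, 0.217 and -0.0131 between libraries numbered 1, 2 and 3. ARID1A-deficient library 1 and parental library 2 stood at -0.267, and ARID1A-deficient library 2 and parental library 1 at -0.174. Values of a library 3 with an unlike number lay between -0.0708 and 0.0825. The 3 deviations of a group sum to 0, so the values for library 3 follow from the others and cannot decide the pairing. The labels state no pairing, and the main fit has no term for it, so the member count depends on this choice. With 3 libraries per group and unknown depth, the spread between libraries limits what can be detected.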
